A study of Homo sapiens with 5 samples.

Results

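The 10 genes followed here belong to the early transcriptional response: the zinc finger factors EGR1, EGR2 and EGR3, the orphan nuclear receptors NR4A1 and NR4A2, the Krüppel-like factors KLF2, KLF4, KLF6 and KLF10, and the nuclear protein gene IER2. They were measured in human colorectal cancer cells recovered from zebrafish larvae, were chosen by symbol, were listed in all 5 plates of the study and all 10 passed the filter on low counts, out of 15022 human genes kept. The cells were SW480, an established line from a primary colorectal adenocarcinoma, labelled with GFP and injected into zebrafish embryos. Tumours were dissected and pooled at 1 day post injection (dpi), soon after the cells were placed, or at 4 dpi, when the cells that remained had persisted in the host. Both groups were digested with liberase at 37 °C, held with the ROCK inhibitor Y-27632 and DNase, and sorted alive into 384-well plates for 3′-end single-cell sequencing, 3 plates at 1 dpi (plates 6, 7 and 8) and 2 at 4 dpi (plates 10 and 11). Both groups therefore share the line, the GFP label and the dissociation, and no group of cells that stayed in culture is used here. Nothing in the sources used here ties a plate to its own pool of larvae, so p-values measure the spread between plates, which may be technical.

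The members belong to the immediate early genes, whose promoters are already open and whose transcription starts within minutes of a growth factor, stress or calcium signal without new protein synthesis. Mitogen signals run through the kinases ERK1 and ERK2 to the ternary complex factors, which sit with serum response factor (SRF) on CArG boxes, while cAMP and stress signals act through CREB and ATF factors. The messengers are short-lived, so a level seen in a cell reflects a recent signal. EGR1 to EGR3 bind GC-rich sites and drive a later layer of genes, and the corepressors NAB1 and NAB2 hold them back. NR4A1 and NR4A2 act without a known ligand. KLF2, KLF4, KLF6 and KLF10 bind GC and CACCC boxes; KLF4 is known from differentiated colon epithelium, and KLF10 was first described as a gene that transforming growth factor beta induces early. IER2 is a nuclear protein induced with the same kinetics.

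The promoters of EGR1 and EGR2 are shown because these members are textbook targets of SRF and because both fell with time. In the 250 bases before the annotated starts, taken from RefSeq on GRCh38.p14, a search for the CArG box on both strands matched 1 window of each. Capitals mark the CArG boxes, and the last base of each line is the base before the start.

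EGR1, chr5:138465229-138465478, plus strand: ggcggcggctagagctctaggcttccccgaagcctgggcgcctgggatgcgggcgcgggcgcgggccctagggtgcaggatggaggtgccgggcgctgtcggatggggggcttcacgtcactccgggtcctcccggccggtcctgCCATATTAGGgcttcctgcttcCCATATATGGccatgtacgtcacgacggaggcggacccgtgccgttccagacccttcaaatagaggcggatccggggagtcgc

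EGR2, chr10:62816367-62816616, minus strand: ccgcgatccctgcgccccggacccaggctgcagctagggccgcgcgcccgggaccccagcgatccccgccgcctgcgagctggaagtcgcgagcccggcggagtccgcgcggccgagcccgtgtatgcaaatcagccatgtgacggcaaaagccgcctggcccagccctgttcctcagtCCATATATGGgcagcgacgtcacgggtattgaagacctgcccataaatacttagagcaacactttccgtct

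The EGR1 window held 2 CArG boxes, CCATATTAGG with its first base 105 bases before the start and CCATATATGG 83 bases before it, and no GENCODE transcript overlapped the window. The EGR2 window held 1, CCATATATGG, 71 bases before the start. That start is the third of 3 annotated for EGR2, and the window overlapped 3 EGR2 transcripts, of which 1 had 7 exonic bases there. It also lay in an intron of ENSG00000289487. Of all 35116 windows of that length in the table, 407 (1.16%) held a CArG box. There were 10 windows of 7 members, with none for EGR3 and KLF10 on chromosome 8 or for NR4A2. None of the other 8 windows (NR4A1, KLF2, KLF4, KLF6, IER2 and the other EGR2 starts) held a CArG box. The letters TGACG, the core that CREB and ATF factors bind, were in windows of 4 of the 7 members (EGR1, EGR2, KLF4 and IER2) against 21.2% of all windows. GGGCGG was in windows of 6 members against 42.6%, CCGGAA in windows of 2 (NR4A1 and IER2) against 14.5%, and the EGR site GCGTGGGCG in none against 0.72%. EGR2 and NR4A1 had more than 1 window and so more places to match, which puts the member counts on another scale than the window shares. All of these are matches of letters and say nothing of binding.

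The 826 cells kept (533 at 1 dpi, 293 at 4 dpi) had more than 2000 genes and under 25% mitochondrial UMIs, a UMI being 1 counted molecule. Median depth ran from 18823 to 36197 UMIs per cell over the plates, and 260 of the 384 well barcodes passed in more than 1 plate, since every plate carries the same barcode set. All 9 colon epithelium markers had a UMI, with summed levels of 4639 to 5694 CPM, UMIs per 1000000 of all human UMIs at 1 dpi and 4670 to 4861 CPM at 4 dpi. Of the leukocyte list 5 of 6 genes had a UMI (CD3E at 0), with sums of 8.26 to 9.49 CPM at 1 dpi and 5.28 to 6.06 CPM at 4 dpi. Of the erythroid list 3 of 4 did (ALAS2 at 0), with sums of 5.06 to 9.83 and 3.17 to 4.04 CPM, and HBA1 was lower at 4 dpi (log2 change −1.16, edgeR adjusted p = 0.0402). Of the endothelial list 3 of 4 did (CDH5 at 0), with sums of 1.49 to 2.00 and 1.77 to 2.11 CPM. The fibroblast list, with 5 of 6 genes found (COL1A2 at 0), summed to 23.3 to 27.4 CPM at 1 dpi and to 33.0 to 44.7 CPM at 4 dpi, with COL1A1 higher at 4 dpi by 2.14 (log2, SE 0.41, edgeR adjusted p = 0.00138), and the part of these lists in the results was not tested. In a sum over a plate, fewer cells with a gene and fewer molecules per cell cannot be told apart, so shares of cells follow the levels.

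Between 1 and 4 dpi 5 members fell, 1 rose and 4 did not pass the test. EGR1, EGR2, NR4A1, KLF10 and IER2 fell, by 1.58-fold (IER2) to 4.99-fold (EGR2), and KLF4 rose 1.38-fold. The median change of the 10 was −0.39 on the log2 scale, beside 0.00 over all 12646 genes tested. Over all genes tested, 27.6% were called, 14.2% lower and 13.4% higher at 4 dpi, by edgeR's quasi-likelihood test on UMIs summed per plate with the Benjamini-Hochberg adjustment over all genes at 0.05. Levels below are CPM scaled by TMM, edgeR's correction for library composition. Only 1 end of each molecule is read, so these levels do not scale with transcript length.

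**Figure D1:**
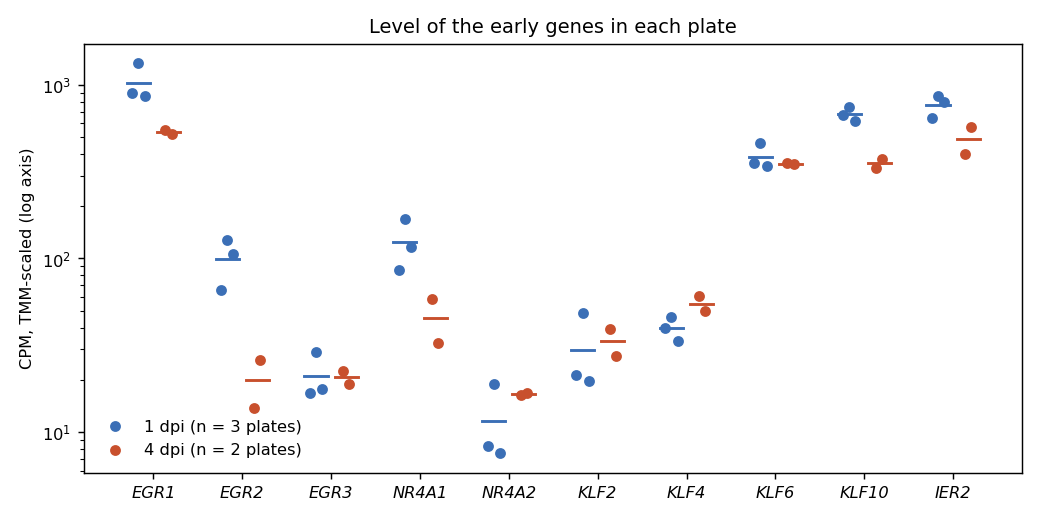
Level of each member (CPM, TMM-scaled, log axis) in the 3 plates at 1 dpi (blue) and the 2 at 4 dpi (orange), with a bar at the group mean. The plates of the time points do not overlap for EGR1, EGR2, NR4A1, KLF10 and IER2, which are lower at 4 dpi, and for KLF4, which is higher.

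EGR1 was the most abundant member at 1 dpi. Its level was 896, 1325 and 863 CPM in plates 6, 7 and 8 and 547 and 524 CPM in plates 10 and 11. Plate 7 was the highest, the 4 dpi plates were close to each other, and the groups did not overlap. The change was −0.94 (log2, SE 0.14, edgeR adjusted p = 2.26e-04), from 1028 ± 258 (SD, n = 3 plates) to 535 ± 16.1 CPM (n = 2). Over all genes tested, 54.6% had plates that do not overlap, 27.6% with 4 dpi lower and 27% with 4 dpi higher. Among the members 5 were lower and 1 was higher in this way.

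EGR2, the member known from myelinating glia and hindbrain that also takes part in the growth factor response, fell most. It was at 65.9, 128 and 106 CPM in the 1 dpi plates and at 13.9 and 26.0 CPM in the 4 dpi plates. The highest plate at 4 dpi was under the lowest at 1 dpi, and the change was −2.32 (SE 0.27, edgeR adjusted p = 1.95e-05). EGR3 had 16.9, 28.9 and 17.8 CPM at 1 dpi and 22.7 and 19.0 CPM at 4 dpi. Its groups overlapped and its change of −0.01 (SE 0.23, edgeR adjusted p = 0.975) turned to above 0 under 9 of the 16 alternative settings. The relative EGR4, which was fixed among the other family genes, fell by 1.54 on the log2 scale (edgeR adjusted p = 6.72e-06).

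Of the nuclear receptors, NR4A1 was the more abundant and the one that fell. It had 86.0, 168 and 117 CPM in the 1 dpi plates and 58.7 and 32.8 CPM in the 4 dpi plates, with no overlap. The change was −1.43 (SE 0.24, edgeR adjusted p = 5.55e-04), and −1.91 without plate 10 and −1.07 without plate 11. It was smaller but still called in cells thinned to 5000 UMIs (−0.96, edgeR adjusted p = 0.0187) and with equal weight per cell (limma, −0.83, adjusted p = 0.00528). NR4A2 was the lowest member at 1 dpi. It had 8.29, 19.0 and 7.56 CPM in the 1 dpi plates and 16.4 and 16.9 CPM in the 4 dpi plates, and the overlap was due to plate 7 alone. Its change was 0.53 (SE 0.31, edgeR adjusted p = 0.217), and 1.07 without plate 7 (edgeR adjusted p = 0.00601). NR4A3, the third receptor of the family, fell by 1.08 from a low level (edgeR adjusted p = 0.0444).

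The Krüppel-like factors split 3 ways. KLF10 had 668, 747 and 618 CPM in the 1 dpi plates and 331 and 375 CPM in the 4 dpi plates. The gap between the groups was larger than the range within either, and the change was −0.94 (SE 0.10, edgeR adjusted p = 1.23e-05). KLF4 had 39.9, 46.3 and 33.6 CPM in the 1 dpi plates and 60.4 and 49.7 CPM in the 4 dpi plates. It was the member that rose, by 0.46 (SE 0.15, edgeR adjusted p = 0.0273). The KLF4 call was lost by DESeq2 (adjusted p = 0.0587), in thinned cells (0.0919) and without plate 6 (0.0568), plate 8 (0.0961) or plate 10 (0.227).

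KLF6 had 356, 459 and 340 CPM in the 1 dpi plates and 355 and 349 CPM in the 4 dpi plates. The 4 dpi plates fell inside the range of the 1 dpi plates, and the change was −0.13 (SE 0.12, edgeR adjusted p = 0.426). KLF2, best known from endothelium and T cells, had 21.3, 48.4 and 19.7 CPM in the 1 dpi plates and 39.3 and 27.3 CPM in the 4 dpi plates. Its change was 0.17 (SE 0.29, edgeR adjusted p = 0.692). In plate 7, 84 of the 255 KLF2 UMIs (32.9%) came from 1 cell, and without that plate KLF2 was called higher (0.70, edgeR adjusted p = 0.0166). Giving each cell equal weight it was also called higher (limma, 0.86, adjusted p = 0.00187).

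IER2 had 645, 866 and 795 CPM in the 1 dpi plates and 401 and 572 CPM in the 4 dpi plates. The groups did not overlap, although plate 11 was closer to plate 6 than to plate 10. The change was −0.66 (SE 0.14, edgeR adjusted p = 0.00252), and −0.42 without plate 10 and −0.94 without plate 11, called in both cases. At 4 dpi the order of the abundant members was EGR1, IER2, KLF10 and KLF6, and of these neighbours IER2 overlapped with EGR1 and KLF10 with KLF6 over the plates. The less abundant members followed in the order KLF4 (55.1 CPM), NR4A1 (45.7), KLF2 (33.3), EGR3 (20.8), EGR2 (19.9) and NR4A2 (16.6), where each overlapped with the next over the plates except KLF2 with EGR3. At 1 dpi NR4A1 (124 CPM) and EGR2 (100.0) had stood above KLF4 (39.9).

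**Figure D2:**
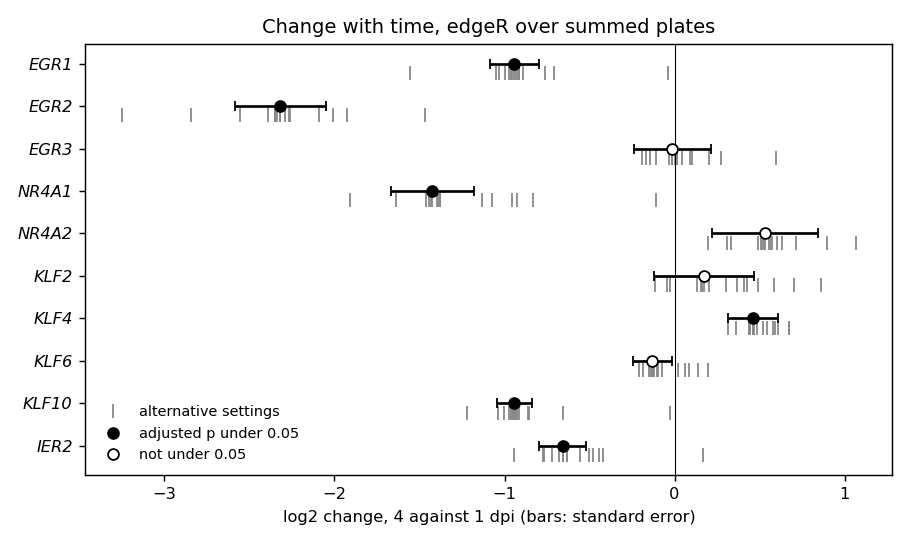
Log2 change from 1 to 4 dpi of each member with its standard error (circles, filled where the edgeR adjusted p was under 0.05) and the change under each of 16 alternative settings (grey ticks). EGR2 lies farthest from 0 at −2.32, and the ticks of EGR3, KLF2 and KLF6 lie on both sides of 0, as do those of IER2 through 1 setting (cells without a HES5 UMI, 0.17).

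The plates were sequenced on 2 flow cells, as the names of the deposited tables give them, with plates 6, 7 and 10 on the first and plates 8 and 11 on the second. Within the first flow cell the log2 ratio of plain CPM (4 over 1 dpi) was −0.9998 for EGR1, −2.78 for EGR2, −1.09 for NR4A1, −1.08 for KLF10 and −0.89 for IER2. Within the second it was −0.69, −2.00, −1.81, −0.70 and −0.45 in the same order. KLF4 was higher at 4 dpi in both, at 0.51 and 0.59. The 5 falls and the rise therefore held in direction within each flow cell, with no replicate in 3 of the 4 arms.

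The share of cells with at least 1 UMI was compared in cells thinned to 5000 UMIs, which left 815 cells. EGR1 was found in 49.1% ± 8.94 (SD, n = 3 plates) of cells at 1 dpi and in 35.0% ± 4.83 (n = 2) at 4 dpi. EGR2 was found in 18.5% ± 5.02 and 5.70% ± 2.62, KLF10 in 63.5% ± 4.25 and 46.0% ± 0.818, and NR4A1 in 16.1% ± 4.03 and 10.5% ± 1.49. The plates of the time points did not overlap for 7 of the 10 members, beside 40% of the 10178 genes seen in at least 5% of a plate's cells. At 4 dpi 5 were lower (EGR1, EGR2, EGR3, NR4A1 and KLF10; 19.6% of all genes) and 2 were higher (KLF2 and KLF4; 20.4% of all genes).

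The shares of several members depended on the depth. At 5000 UMIs EGR3 was in 8.73% ± 1.04 of cells at 1 dpi and in 5.59% ± 0.794 at 4 dpi. KLF2 was in 9.56% ± 0.387 and 12.8% ± 0.352. At 10000 UMIs the plates overlapped for both, with EGR3 in 12.0% and 10.7% of cells and KLF2 in 13.3% and 17.05%, and without thinning those of KLF2 did (27.3% and 28.2%). KLF4 was in 17.1% ± 1.86 and 21.1% ± 0.434 at 5000 UMIs, and its plates overlapped without thinning (48.5% and 48.9%). At that depth NR4A2 (7.04% and 7.72%), KLF6 (55.4% and 57.0%) and IER2 (65.4% and 58.4%) overlapped. At 10000 UMIs NR4A2 was higher (6.76% and 15.3%) and IER2 lower (79.5% and 69.7%) at 4 dpi without overlap. An exact two-sided permutation of 3 against 2 plates cannot give a p under 0.1. At 5000 UMIs that value was reached by EGR2, EGR3, KLF2, KLF4 and KLF10, while EGR1 gave an exact permutation p of 0.2 and NR4A1 0.3.

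The number of UMIs in the cells that had one was compared at the same depth. EGR1 went from 9.75 ± 0.446 UMIs per cell with a UMI at 1 dpi to 6.94 ± 0.468 at 4 dpi, and KLF10 from 4.64 ± 0.202 to 3.32 ± 0.0941. The fall of both was thus present in the share of cells and in the molecules per cell with a UMI. EGR3 went the other way, from 1.25 ± 0.164 to 2.06 ± 0.442, as did KLF4, from 1.30 ± 0.0417 to 1.56 ± 0.0917. For each of these 4 the plates did not overlap and the exact permutation p was 0.1, the smallest the design allows. The share of all genes whose plates separate on this measure was not computed. EGR3 counts at 4 dpi came from 8 cells in each plate.

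The members were spread very unevenly over the cells of a plate. The 10% of cells richest in EGR1 UMIs held 69.6% ± 2.45 (SD, n = 3 plates) of them at 1 dpi and 83.2% ± 2.18 (n = 2) at 4 dpi. In plate 10, 894 of 2170 EGR1 UMIs (41.2%) came from 1 cell, and in plate 11, 523 of 2013 (26.0%) did. With the 2% of cells richest in each gene left out, EGR1 fell by 1.56 and EGR2 by 3.25 on the log2 scale, further than in the full sums, while NR4A1 fell by less (−0.93 in place of −1.43).

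By variance over mean in thinned cells, EGR1 ranked 6, 3, 6, 2 and 15 in plates 6, 7, 8, 10 and 11 among the 8750 to 9360 genes with a mean of at least 0.05 UMIs. NR4A1 ranked between 13 and 99, KLF10 between 31 and 48, IER2 between 25 and 50 and KLF6 between 29 and 91. By this measure these 5 members were thus within the 1.05% most dispersed genes of every plate. The less abundant members ranked lower and over a wide range, EGR2 from 55 to 1087, KLF4 from 285 to 1646, EGR3 from 157 to 6122, NR4A2 from 688 to 6907 and KLF2 from 80 to 8566. Genes were not matched on level in this ranking. Another measure, the variance minus the mean over the squared mean, gave another order at 1 dpi. It was 10.96 for NR4A1, 6.79 for KLF2, 5.93 for EGR2 and 3.89 for EGR1. For KLF2 it ran from −0.94 in plate 8 to 12.6 in plate 7. IER2 (1.82), KLF6 (1.72) and KLF10 (1.55) had the lowest values of the 10 members.

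The 10% of cells richest in each gene held more of its UMIs at 4 dpi, with no overlap between plates, for EGR1, EGR2, EGR3, KLF10 and IER2. For EGR2 it rose from 79.6% ± 4.50 to 97.5% ± 3.54, for KLF10 from 52.1% ± 4.47 to 65.3% ± 4.28 and for IER2 from 55.8% ± 1.65 to 62.1% ± 5.17. A gene found in fewer cells has a larger share there by construction. Cells were not thinned for this measure, and the share of all genes whose plates separate on it was not computed. KLF6 (50.7% and 52.8%) and KLF4 (53.1% and 56.9%) were the most evenly spread at 4 dpi and overlapped.

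The typical cell moved as well. The median cell had 0.92, 1.63 and 0.66 EGR1 UMIs per 10000 in the 1 dpi plates and 0.22 and 0.38 in the 4 dpi plates. For KLF10 the medians were 2.38, 3.20 and 2.14 against 1.10 and 1.20, and for IER2 2.03, 2.76 and 2.22 against 1.28 and 1.40. None of these overlapped, and the share of all genes whose medians separate was not computed. KLF6 medians were 1.95, 2.35 and 1.66 at 1 dpi and 1.09 and 1.75 at 4 dpi, which overlapped.

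Most pairs of members were found together in the same cells more often than the product of their shares. Across 45 pairs, the log2 odds ratio of co-detection in thinned cells was above 0 in all 5 plates for 35 pairs, in 4 plates for 5 and in at most 3 for 5. Adding 0.5 to each count can lift a ratio above 0 where fewer cells than the product held both. That happened for KLF2 with KLF4 in plate 8, with 2 cells against 2.25. It also happened for EGR3 with KLF2 in plate 11 (1 against 1.01) and EGR2 with KLF4 in plate 10 (1 against 1.04). KLF2 with KLF4 and EGR3 with KLF2 are among the 35 pairs. Pairs of other genes were not compared. The mean over plates had a median of 1.78 over the pairs, from 0.32 (EGR2 with KLF4) to 3.92 (EGR1 with EGR2). At 1 dpi, 87 cells held both EGR1 and EGR2 where the product of shares gave 46.5, and at 4 dpi 15 did where it gave 6.18. EGR2 and NR4A1 were together in 49 cells at 1 dpi where the product gave 15.3.

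In UMIs per 10000, the closest pair was EGR1 with IER2, with a mean within-plate Spearman's rho of 0.73 (0.63 to 0.79 over 5 plates of 132 to 228 cells). KLF10 with IER2 followed at 0.61, EGR1 with EGR2 at 0.58, and EGR2 with IER2 and EGR1 with KLF10 at 0.55 each. KLF2 with NR4A1 and with NR4A2 was lowest, at 0.14 each, from sparse counts. The median over the pairs was 0.33. The cells of a plate share a library and differ in depth, so these correlations describe the plates and carry no p.

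The rho of KLF4 with other members was higher at 4 dpi. With IER2 its mean rho was 0.21 at 1 dpi and 0.49 at 4 dpi, with EGR1 0.18 and 0.42, and with KLF10 0.28 and 0.46. Its mean log2 odds ratios of co-detection moved unevenly. They were 1.18 and 1.81 with IER2, 1.31 and 1.40 with KLF10, and 1.34 and −0.94 with NR4A2. KLF2 also had higher rho at 4 dpi with IER2 (0.21 and 0.41) and KLF10 (0.23 and 0.37), but not with NR4A1 (0.14 at both). EGR2 went the other way, with rho to EGR1 of 0.69 and 0.41 and to IER2 of 0.64 and 0.41. Only 11 of 132 and 22 of 161 cells had an EGR2 UMI at 4 dpi, so most of its ranks there were tied at 0. Its mean log2 odds ratio of co-detection with EGR1 was 4.29 at 1 dpi and 3.36 at 4 dpi, and with IER2 3.69 and 2.84. These differences were not tested.

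Counted over all members, 9.06% ± 2.95 of thinned cells at 1 dpi had none of the 10 where the product of the single shares gave 1.30%, and 13.8% ± 4.41 had none at 4 dpi where it gave 3.28%. At the other end, 14.99% ± 4.51 had 6 or more at 1 dpi where the product gave 3.24%, and 8.56% ± 1.23 at 4 dpi where it gave 1.13%. No cell had more than 8. Cells thus held few or many members more often than separate draws would give, at both times.

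**Figure D3:**
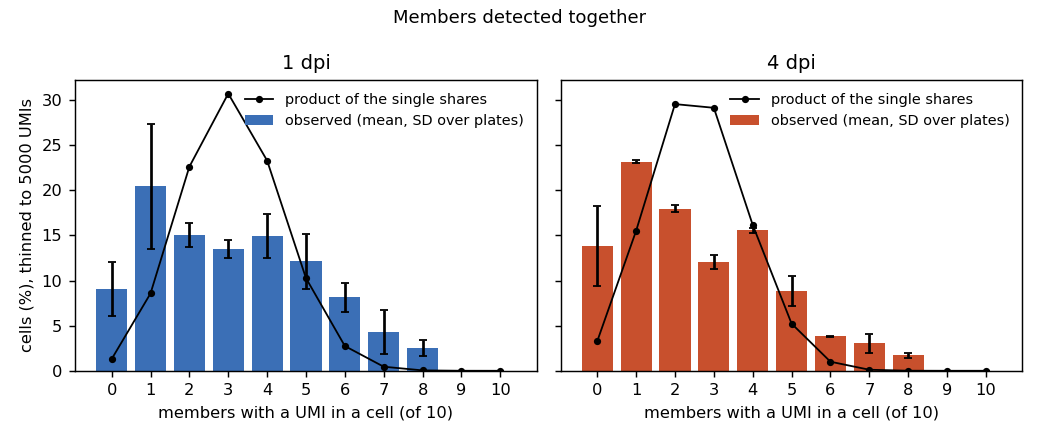
Percent of cells (thinned to 5000 UMIs) with 0 to 10 members detected, as the mean over plates with its SD (bars), and the percent that the product of the single shares gives (black line). At both times the bars exceed the line at 0 and 1 members and at 5 to 8, and lie below it at 2 to 4.

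The richest cells were also shared. Of the 10% of cells richest in EGR1, 60.0% ± 10.3 (SD, n = 5 plates) were among the 10% richest in IER2 and 49.8% ± 15.2 among those richest in NR4A1, where unrelated genes would share 10%. For EGR2 it was 63.3% ± 14.0 over 4 plates, with plate 10 left out because only 11 of its cells had an EGR2 UMI. KLF10 shared 31.5% ± 7.78, KLF6 29.1% ± 3.57 and KLF4 13.6% ± 8.82. KLF2 shared 23.3% ± 9.42, NR4A2 28.5% ± 15.4 and EGR3 35.3% ± 16.5. By the mean over plates KLF4 thus shared least with EGR1. This order did not hold in every plate. In plate 10 KLF4 shared 28.6%, and KLF10 and KLF2 shared 21.4% each.

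The genes whose levels followed the members most closely from cell to cell were led by AP-1 subunits. Likeness was the mean of 5 within-plate Pearson correlations with the mean member score, over 10933 genes with a UMI in at least 10% of cells, whose median was 0.02 and whose 99th percentile was 0.42. The AP-1 subunits FOS (0.77), JUNB (0.76), FOSB (0.73) and JUN (0.71) stood first, followed by CCNL1, a cyclin of splicing (0.70), ZFP36, which destabilises messengers (0.69), and ATF3 (0.67). HES1, an effector of Notch, was next (0.66), with 0.75 to 0.78 in the 1 dpi plates and 0.51 in both 4 dpi plates. RIPK4, a kinase, and RHOB, a small GTPase, closed the list at 0.63 each.

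The member score had a mean within-plate correlation of 0.86 with the summed AP-1 list and of 0.83 with the list of other immediate early genes. It was 0.54 with genes of ERK feedback and output and 0.32 with heat shock genes, which also respond to dissociation. It was −0.24 with S-phase genes, −0.07 with genes of G2 and mitosis, −0.29 with the mitochondrial share and 0.03 with total UMIs. The part of the dissociation and of the mitochondrial share in the members' levels was not tested.

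At 1 dpi the cells with a UMI of HES5, another Notch effector, held more of every member in each of the 3 plates. EGR1 was at 1834 ± 241 CPM (SD, n = 3 plates) in these cells and at 557 ± 339 CPM in the rest, KLF10 at 1219 ± 91.8 and 359 ± 91.8, and NR4A1 at 252 ± 69.9 and 47.2 ± 18.6. KLF4 was at 49.2 ± 10.1 and 34.1 ± 4.03. The lowest ratio in a plate differed between members, from 1.02 (KLF2) to 4.81 (NR4A1). For KLF2 it came from plate 7, with 47.9 CPM against 47.2 CPM. The cells with a HES5 UMI were the deeper ones, with medians of 40238 to 43405 UMIs against 20997 to 34771. The share of all genes that were higher in the cells with a HES5 UMI was not computed.

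Cells without a HES5 UMI were 66.2% to 74.1% of the 1 dpi plates and 93.2% and 94.4% of the 4 dpi plates. In these cells alone, a comparison added after the data were seen, 1 member was called lower at 4 dpi in place of 5, beside 907 lower of 11995 genes tested. EGR2 fell by 1.47 on the log2 scale (edgeR adjusted p = 0.0141), while EGR1 changed by −0.04 (edgeR adjusted p = 0.951), KLF10 by −0.02 (0.936), NR4A1 by −0.11 (0.822) and IER2 by 0.17 (0.588). KLF4 was higher by 0.67 (edgeR adjusted p = 0.00770). EGR1, NR4A1, KLF10 and IER2 were thus not called lower in these cells. The split left out deeper 1 dpi cells that held more of these members, so smaller falls were built into it. Cells with and without a HES5 UMI were not matched on depth. The EGR1 change had an SE of 0.28 here, beside 0.14 in all cells. In the cells kept, EGR1 was at 316, 944 and 411 CPM in plates 6, 7 and 8. What links HES5 and the members was not tested.

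The other genes of the pathway did not fall as a whole. Of 9 AP-1 genes tested, 3 were called lower and 3 higher, with a median change of −0.16. JUNB (−1.04) and FOS (−0.91) fell, and ATF3 (0.67) and FOSL2 (0.63) rose. The AP-1 genes closest to the members from cell to cell thus included genes that fell (FOS, JUNB), 1 that rose (ATF3), and FOSB (−0.31) and JUN (0.27), which did not pass. Of 25 other immediate early genes, 6 were lower and 4 higher (median −0.02). ARC, a synaptic early gene (−1.79), and IER3 (−0.96) fell, and CYR61 (1.20) and BTG1 (0.85), which restrains growth, rose. The plates of CYR61 overlapped.

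Of 15 genes of ERK feedback and output, 6 were called lower and the other 9 did not pass (median −0.28), with DUSP5, a phosphatase of nuclear ERK (−1.26), and SPRY4, an inhibitor of receptor signalling (−0.91), falling most. Among 14 upstream kinases and factors, 5 were lower and 2 higher (median −0.12). ELK3, a ternary complex factor, fell by 2.12 and SRF by 0.78 on the log2 scale, while MAPK3, which encodes ERK1, rose by 0.92.

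Of 14 relatives of the members, 4 were lower and 4 higher (median 0.10), with EGR4 (−1.54) the largest fall and KLF8 (0.86) the largest rise. Of 11 partners and corepressors, SP2 (−0.45) was lower and CTBP2 (0.35) higher, and NAB1 and NAB2 did not pass. Of 13 heat shock genes, 5 were lower and 3 higher (median −0.30). HSPA1A, the inducible chaperone, rose by 1.63 and DNAJB1 fell by 0.68. The part of the dissociation in these changes was not tested. Of 11 S-phase genes 2 were higher (RRM2, 0.91) and 1 lower (MCM6, −0.37), and all 12 genes of G2 and mitosis were higher (median 1.00, with TOP2A at 1.69). These calls are from the same edgeR fit, and their share is to be read beside the 27.6% of all genes called.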

How the data were processed

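SW480 cells from pooled zebrafish tumours were sorted 1 per well and sequenced by SORT-seq, a CEL-Seq2 method. The deposited counts are raw UMIs per gene and well. The authors mapped read 2 with BWA (version not given in the sources used here) to human transcripts, hg38 per the submitters' processing notes. Genes listed in all 5 plates and in at least 10 wells were kept, with wells of at least 200 genes, then cells with more than 2000 genes and under 25% UMIs of MT- genes. No doublet caller was run. Human UMIs of passing cells totalled 3789627 to 7503652 per plate.

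UMIs were summed per plate (3 at 1 dpi, 2 at 4 dpi), since cells of a plate are not replicates, and tested with edgeR 4.0.16 (TMM, filterByExpr, quasi-likelihood, two-sided; R 4.3.3). DESeq2 1.42.0 and limma 3.58.1 on log2(CPM + 1) of cell means were alternatives, with edgeR without TMM or filter, other cell filters (15% mitochondrial, 3000 genes), thinning, a flow cell term and each plate left out. Some alternatives were chosen after seeing the data: the 2% of cells richest in each gene left out, and cells without a HES5 UMI. Shares of cells were taken after thinning each cell to 5000 UMIs (11 shallower cells left out) and compared by exact permutation (scipy 1.17.1). Odds ratios had 0.5 added to each count. The scripts for the tests across genes were tested on simulated data.

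The members and lists were chosen with earlier results of these data known. All 10 members are named. From each list the called genes with the largest rise and fall are named, up to 2 each for the AP-1, other early and ERK lists, with the 10 genes most like the member score; NR4A3, SRF, NAB1, NAB2 and HES5 are named besides, after their values were seen. Intervals and limits cover counting error only.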

Additional observations from a re-analysis of the deposited data

Results flagged for a closer look

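Wells outside the filter, which no comparison used, held member UMIs above the limit that a count of 0 allows. Summed over the 10 members, wells under 200 genes had 2273 member UMIs per 1000000 human UMIs at 1 dpi (69 UMIs in 330 wells) and 464 at 4 dpi (13 UMIs in 157 wells). Wells of 200 to 2000 genes had 2349 at 1 dpi (798 UMIs in 284 wells) and 684 at 4 dpi (422 UMIs in 263 wells). Wells over 2000 genes with 25% or more mitochondrial UMIs had 1048 at 1 dpi (64 UMIs in 5 wells) and 325 at 4 dpi (246 UMIs in 55 wells). Passing cells had 3117 at 1 dpi and 1932 at 4 dpi, so each class of wells left out was lower than the passing cells of its time point. Within the class of high mitochondrial share, plate 10 had 176 and plate 11 had 491. No group had enough plates for a single plate to be judged apart from the others of its time point.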

How the results depend on the processing

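EGR2 was called lower under all 16 alternatives, and EGR1, NR4A1, KLF10 and IER2 under 15. The exception was cells without a HES5 UMI, where 1 member was called lower and 2 in either direction in place of 6, and IER2 was at 0.17. The count called higher, 1, was 0 by DESeq2 and in cells thinned to 5000 UMIs, 2 with equal weight per cell, and 0 to 3 with a plate left out; over all genes DESeq2 called 1181 higher and 1301 lower, and thinned cells 568 and 509. EGR3 turned above 0 without TMM (0.014), at 15% mitochondrial (0.20), at 3000 genes (0.015), thinned (0.093), with the flow cell as a term (0.045), with equal weight (0.0055) and without HES5 (0.60), and lay between −0.17 and 0.27 with a plate left out. KLF6 turned at 15% mitochondrial (0.059), thinned (0.14), with equal weight (0.086) and without HES5 (0.20), and lay between −0.21 and 0.020 with a plate left out. KLF2 lay between −0.11 and 0.70 with a plate left out. The causes were not tested. With equal weight per cell limma called 1827 genes higher and 1372 lower in place of 1695 and 1790, a split of 42.9% against 51.4% lower, and moved the median gene by 0.06. In cells without a HES5 UMI 956 and 907 genes were called. The number of pairs above 0 in every plate was 33 to 41 and of members with separate shares 6 to 8. No paired analysis was possible because the groups share no replicate number; the fit with the flow cell as a term called 5 members lower and 1 higher. At 5000 UMIs per cell, EGR2 was counted in 5 and 12 cells of the 4 dpi plates, and NR4A2 and EGR3 in 7 to 17 cells of a plate, which limits their shares.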
